A study of Tupaia belangeri with 6 samples.

Results

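The genes described here encode the precursors of 10 neuropeptides of the cerebral cortex: SST, VIP, NPY, CCK, TAC1, CRH, PENK, PDYN, CORT and ADCYAP1. They form a group by known function, and no measured value enters the rule that defines it. In the gene abundance tables of 6 tree shrews (Tupaia belangeri), 8 of the 10 were listed by name among 95863 loci, each as 1 locus and with no additional copy. PDYN, the precursor of dynorphin, and CORT, the precursor of cortistatin, were names of 0 loci, so no level can be given for them. Other named genes without expression are listed at 0, so the absence of a name says nothing about the level of either gene.

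The prefrontal cortex (PFC) was sampled in 3 adult females (numbered 1, 3 and 4) and 3 adult males (numbered 1, 4 and 5), with 1 polyadenylated RNA library for each animal. No treatment or genetic change is given for any animal. The study lists each male at a greater age than each female, so sex and age cannot be told apart here. The labels name the tissue as PFC without naming a hemisphere or layer.

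Neuropeptides are made as long precursors, cut to size by prohormone convertases, stored in dense-core vesicles and released to act on G protein-coupled receptors. In the mammalian cortex SST, VIP, NPY and CRH are best known as products of subtypes of GABAergic interneurons. CCK is made by a class of interneurons and by pyramidal cells, and ADCYAP1 encodes PACAP, a peptide of excitatory neurons. TAC1, the precursor of substance P, and PENK, the precursor of the enkephalins, are made by some cortical cells and are among the most abundant peptide transcripts of striatal projection neurons. In bulk tissue, fewer cells of a type and less RNA per cell cannot be told apart.

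Levels are given as TPM (transcript abundance relative to the library total), which accounts for transcript length and allows genes to be compared within a library. Such comparisons rest on the annotated extent of each locus, which was not checked. The tables give mean coverage of each locus, which ranged over the 8 genes from 9.15 (TAC1 in male 5) to 1238 (SST in female 4), but no read counts or exon lengths, so counting error is not given. CTSL, which encodes a lysosomal protease of most cells, was listed at 0 in all 6 libraries, so a value of 0 may be a missing estimate. Markers of cortical excitatory neurons were present in all 6 libraries. SLC17A7, a vesicular glutamate transporter, ranged from 783 to 1569 TPM, and TBR1, a transcription factor of the cortex, from 183 to 343 TPM. Of 8 hypothalamic peptide genes 6 were listed, and their summed level ranged from 4.84 to 19.7 TPM. The libraries were not alike in their striatal transcripts. Of 10 markers of striatal projection neurons other than the neuropeptides 5 were listed, and these summed to 131 TPM in female 1, 131 in female 3 and 132 in male 1, against 25.6 in female 4, 26.4 in male 4 and 26.2 in male 5. The share of TPM at loci without a strand also differed between libraries and ranged from 2.30% to 7.88%, highest in male 5.

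CCK was the most abundant of the neuropeptide transcripts in each of the 6 libraries, and SST, the precursor of somatostatin, was second in each. Together CCK and SST made up 72.8% to 86.9% of the summed TPM of the 8 genes. That sum reached 2358, 1964 and 2892 TPM for females 1, 3 and 4, against 3205, 2891 and 2599 TPM for males 1, 4 and 5, or 0.203% to 0.337% of all TPM. By median TPM the order was CCK, SST, NPY, PENK, VIP, TAC1, CRH and ADCYAP1. Within each library CCK ranked between 19 and 83 among 22608 named genes, and ADCYAP1 between 4426 and 5999.

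**Figure D1:**
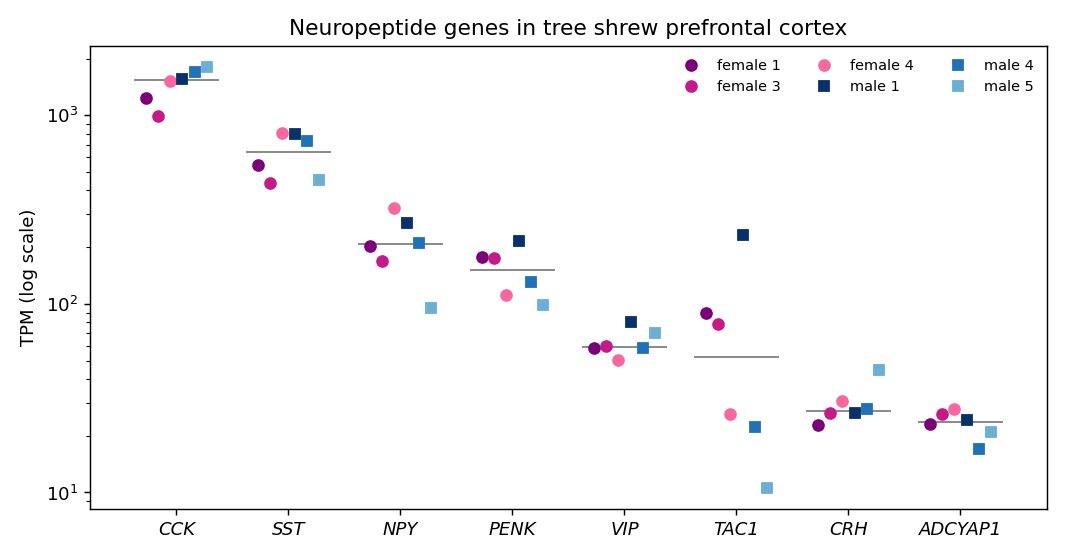
TPM of the 8 neuropeptide genes (log axis) in the 6 libraries, with circles for females, squares for males and a grey line at the median of the 6. CCK and SST hold the first and second place throughout, and TAC1 spreads from 10.6 to 232 TPM.

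CCK, the precursor of cholecystokinin, lies on chromosome 28 (3175411 to 3181947, plus strand, TS_3.0). It measured 1235, 992 and 1518 TPM in females 1, 3 and 4 and 1559, 1696 and 1805 TPM in males 1, 4 and 5. Each male was above each female, with a gap of 1518 to 1559 TPM between the nearest animals. An unnamed locus on the opposite strand overlaps CCK at 15.3 to 34.8 TPM. No strand-specific protocol is stated, and reads of overlapping genes on opposite strands then cannot be told apart.

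SST marks interneurons that inhibit the dendrites of pyramidal cells. It lies on chromosome 1 (13488500 to 13495720, plus strand). Its levels were 548, 437 and 805 TPM in females 1, 3 and 4, and 800, 730 and 453 TPM in males 1, 4 and 5. High and low values occurred in both sexes. An unnamed locus on the opposite strand overlaps it at 1.25 to 5.63 TPM.

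NPY, the precursor of neuropeptide Y and a product of a subset of SST cells and of neurogliaform cells, lies on chromosome 5 (9339101 to 9346460, minus strand). Females 1, 3 and 4 had 203, 170 and 323 TPM, and males 1, 4 and 5 had 267, 210 and 95.7 TPM. Male 5 had the lowest value and female 4 the highest, and the sexes overlapped. No other locus overlaps NPY.

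VIP, the precursor of vasoactive intestinal peptide, marks interneurons that mainly inhibit other interneurons. It lies on chromosome 3 (14056858 to 14066500, minus strand) and measured 58.3, 60.0 and 50.4 TPM in females 1, 3 and 4 and 80.1, 58.1 and 70.0 TPM in males 1, 4 and 5. Its coefficient of variation (CV, the SD as a percentage of the mean over the 6 libraries) was 16.8%, so VIP and ADCYAP1 (16.5%) varied least among the 8 genes. The median CV was 21.4% over 8685 genes with a mean of at least 10 TPM.

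CRH, the precursor of corticotropin-releasing hormone, which in the cortex is made by interneurons, lies on chromosome 13 (72384391 to 72386533, plus strand). Females 1, 3 and 4 had 22.9, 26.4 and 30.7 TPM, and males 1, 4 and 5 had 26.3, 27.7 and 44.4 TPM. Male 5 stood above the other animals, which lay between 22.9 and 30.7 TPM.

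ADCYAP1 lies on chromosome 12 (56015017 to 56108668, plus strand). Its levels of 22.9, 26.1 and 27.6 TPM in females 1, 3 and 4 and 24.4, 17.0 and 20.9 TPM in males 1, 4 and 5 overlapped between the sexes. This locus spans 93652 bp in the merged annotation and overlaps 6 other loci, among them ENOSF1 on the opposite strand at 1.88 to 6.06 TPM, so its level is less certain than those of the other 7 genes.

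PENK lies on chromosome 13 (82452229 to 82459269, plus strand) and measured 178, 174 and 111 TPM in females 1, 3 and 4 and 216, 130 and 98.9 TPM in males 1, 4 and 5. Its 3 highest values were those of male 1, female 1 and female 3. The lowest of these was 1.34 times the highest value among the other 3 libraries. An unnamed locus on the opposite strand overlaps PENK at no more than 0.531 TPM.

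TAC1, which has no overlapping locus, lies on chromosome 5 (103017501 to 103027616, plus strand). Its levels were 89.2, 78.3 and 26.02 TPM in females 1, 3 and 4 and 232, 22.3 and 10.6 TPM in males 1, 4 and 5. The highest value was 21.8 times the lowest, and the CV of 108% was above that of 99.6% of the 8685 genes with a mean of at least 10 TPM. Male 1, female 1 and female 3 were the highest libraries, as for PENK, and the lowest of them was 3.01 times the highest of the other 3.

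The striatal markers separated the same libraries. RGS9, a regulator of G protein signalling enriched in the striatum, measured 48.0, 43.7 and 1.52 TPM in females 1, 3 and 4 and 54.6, 0.355 and 0.392 TPM in males 1, 4 and 5. SIX3, a transcription factor of striatal neurons, measured 13.9, 10.4 and 0.327 TPM in the same females and 19.1 TPM in male 1, and was listed at 0 in males 4 and 5. PDE10A, a striatum-enriched phosphodiesterase, ranged from 51.7 to 67.9 TPM in female 1, female 3 and male 1 and from 21.2 to 23.1 TPM in the other 3. ISL1, a transcription factor of striatal and cholinergic neurons, was listed at 0 in female 4, male 4 and male 5 and at 1.19 to 3.002 TPM elsewhere. DRD1, the D1 dopamine receptor, did not follow this order, with 5.05, 7.06 and 1.20 TPM in females 1, 3 and 4 and 4.02, 4.83 and 2.70 TPM in males 1, 4 and 5. Thus 4 of the 5 listed markers had their 3 highest values in female 1, female 3 and male 1, as had 7.75% of 16237 named genes above 0 TPM in any library. The defining markers DRD2, ADORA2A and PPP1R1B were among those not listed by name.

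**Figure D2:**
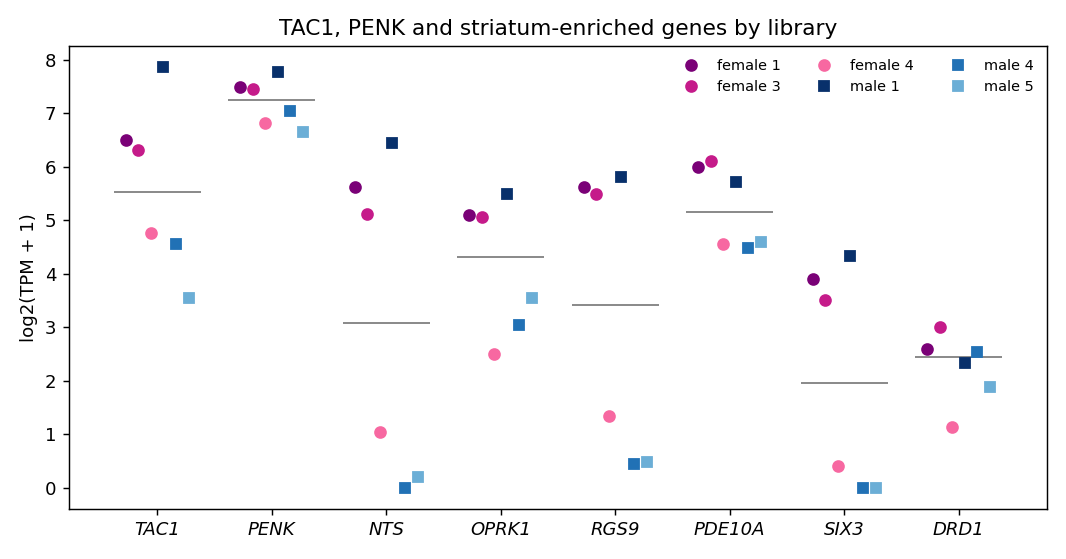
Levels as log2(TPM + 1) of TAC1, PENK, the peptide precursor NTS, the kappa opioid receptor gene OPRK1 and 4 striatum-enriched genes in the 6 libraries, with circles for females, squares for males and a grey line at the median. Female 1, female 3 and male 1 are the highest 3 libraries for each of these genes except DRD1.

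Of the 8 neuropeptide genes only TAC1 and PENK shared this order, and none of the other 6 had its 3 highest values in female 1, female 3 and male 1. Of 21 other listed precursors 1 did, a smaller share than the 7.75% of all named genes. This was NTS (neurotensin), with 48.3 and 33.5 TPM in females 1 and 3 and 86.0 TPM in male 1, against 1.04 TPM in female 4, 0 in male 4 and 0.144 in male 5. Of 6 markers of basal forebrain cholinergic neurons 5 also did so, and their summed level was 8.86, 9.60 and 14.0 TPM in female 1, female 3 and male 1 and between 0.0838 and 0.303 TPM in the other 3. Of 8 listed immediate early genes 6 had the same 3 libraries highest. So had MOG of 3 oligodendrocyte markers, TLE4 of 9 excitatory neuron markers, and DLX5, CHODL and CHAT of 18 interneuron markers. TAC1, PENK, 4 of 5 striatal and 5 of 6 cholinergic markers thus had the same 3 libraries highest, with DRD1 and GBX1 as the exceptions, and the part of other cell types or of neuronal activity in the TAC1 and PENK levels was not tested.

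The order of the levels was tested between neighbouring genes within the 6 animals, with exact two-sided sign-flip permutation tests of the difference in log2(TPM + 1). CCK was above SST in 6 of 6 libraries (median ratio 2.26, range 1.88 to 3.99), SST above NPY in 6 of 6 (2.85, range 2.49 to 4.73) and PENK above VIP in 6 of 6 (2.46, range 1.41 to 3.06). For each of these the exact p was 0.0313, the smallest that 6 animals can give, and 0.0729 after Benjamini-Hochberg adjustment over the 7 neighbouring pairs. With 0 of 7 pairs past an adjusted 0.05, and the pairs taken from the medians of the same libraries, the order is a description by these counts. In the other 4 pairs the upper gene was not higher in every library. NPY was above PENK in 4 of 6 libraries (exact p = 0.125, adjusted p = 0.175), and the ratio ranged from 0.967 to 2.90. CRH was above ADCYAP1 in 5 of 6 (exact p = 0.0625, adjusted p = 0.109), with a ratio of 0.997 to 2.12. TAC1 had no stable place. It was above VIP in 3 of 6 libraries and above CRH in 3 of 6 (adjusted p = 0.562 for each in the exact test), and its place among the 8 genes ranged from 4 in male 1 to 8 in female 4 and male 5.

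Co-variation was examined over the 28 pairs of the 8 genes, on the log2(TPM + 1) scale and over 6 animals. Of these pairs 15 had a positive and 13 a negative Pearson r. None passed an adjusted p of 0.05 in exact permutation tests of r or of Spearman's rho, while 3 pairs for r and 4 for rho had an unadjusted exact p under 0.05. SST and NPY, which are made together in a set of cortical interneurons, had r = 0.836 (exact permutation p = 0.00972, adjusted p = 0.136) and rho = 0.943 (exact permutation p = 0.0167, adjusted p = 0.156). Without female 3 and male 5, the animals farthest from the median of SST, r was 0.756, and after subtraction of the sex means it was 0.969. The ratio of SST to NPY lay between 2.49 and 2.70 in the females and between 2.997 and 4.73 in the males, so it was higher in each male than in each female. This separation was noticed after the values were seen and was not tested. The ratios of CCK to SST, NPY to PENK, PENK to TAC1 and CRH to ADCYAP1 overlapped between the sexes. Among single autosomal genes, 9.81% had sexes that did not overlap.

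The other pairs at an unadjusted p under 0.05 were PENK with TAC1 and PENK with CRH, and TAC1 with CRH for rho alone. Because the libraries fell into separate sets by their striatal transcripts, no r over all 6 animals is given for PENK or TAC1. Male 1 was the highest library for both PENK and TAC1 and male 5 the lowest for both. The PENK level divided by the TAC1 level came to 1.996, 2.23 and 4.28 in females 1, 3 and 4, whereas it came to 0.931, 5.82 and 9.32 in males 1, 4 and 5, so TAC1 varied more than PENK. CRH had its highest value in male 5, where PENK and TAC1 were lowest, and its lowest in female 1.

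**Figure D3:**
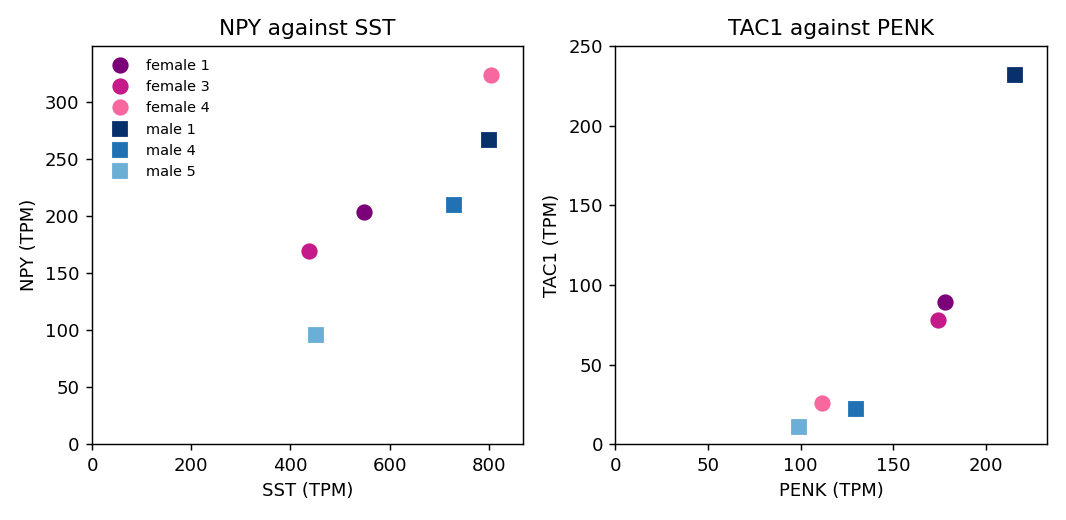
NPY against SST (left) and TAC1 against PENK (right), in TPM, with 1 point for each of the 6 libraries, circles for females and squares for males. On the left female 4 is highest for both genes and male 5 is lowest for NPY (95.7 TPM). On the right male 1, female 1 and female 3 lie above the other 3 libraries on both axes.

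For the 6 neuropeptide genes other than PENK and TAC1, the genes with the most similar profile were taken by Pearson r over the 6 libraries from 9583 named genes with a mean of at least 1 TPM. With 6 points such lists are long, and each of the 6 genes other than PENK and TAC1 had between 6 and 31 genes at r over 0.95. FAM25A (r = 0.988), ROMO1 and ATXN10 were nearest to CCK, and UQCR10 (0.992), FIBP and MPC2 to SST. For NPY they were FKBP1B (0.990), HSPB6 and MED10, and for VIP ABCA1 (0.991), CCDC58 and ACYP2. CRH was nearest to POLI (0.995) and B4GALT4, and ADCYAP1 to HCRTR2 (0.986), a receptor of the orexin peptides, LGMN and ZNF782. These values are descriptions and carry no test, and PENK and TAC1 are left out for the reason given above.

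Females and males were compared to ask whether any neuropeptide transcript differed by sex. None of the 8 genes was called, and differences are given on the log2(TPM + 1) scale, as the mean of the females minus that of the males. In the limma fit 0 of 8 passed an adjusted p of 0.1 (Benjamini-Hochberg over 27996 autosomal genes), where 4 genes (0.0143%) were called. At an unadjusted p under 0.05 there were also 0 of 8, against 5.04% of all genes. The median difference of the 8 was -0.02, beside -0.03 over all autosomal genes, with 4 genes higher in each sex. Transcripts of red blood cells differed between the sexes. The haemoglobin genes HBG and HBQ1 were among the called genes (differences 4.35 and 4.52, limma adjusted p = 0.00976 each), and the 2 listed haemoglobin genes summed to 1272, 2539 and 1468 TPM in females 1, 3 and 4 against 62.7, 73.8 and 100.4 TPM in males 1, 4 and 5. The 3 listed oligodendrocyte markers summed to between 348 and 482 TPM in the females and between 80.7 and 236 TPM in the males. The myelin gene MAG differed by 1.68 without passing the threshold (limma adjusted p = 0.893). MAG alone of the 3 had sexes that did not overlap, beside 9.81% of all autosomal genes. MOG overlapped, with 76.4 TPM in male 1 against 63.0 TPM in female 4. MBP did as well, with 13.6 TPM in male 1 against 9.79 TPM in female 1. The haemoglobin calls were lost with the share of TPM without a strand as a covariate and without the mean-variance trend, where 0 autosomal genes were called. The part of blood and oligodendrocyte RNA in the sex differences below was not tested.

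CCK had the smallest p of the 8. The male mean was 1687 ± 123 TPM and the female mean 1248 ± 263 TPM (SD, n = 3 each), a ratio of 1.35. On the log2 scale the difference was -0.45 with an SE of 0.280 (limma adjusted p = 0.925). CCK was the only one of the 8 genes whose sexes did not overlap, while 9.81% of all autosomal genes did not overlap and 4.97% had each male above each female. With FPKM in place of TPM the sexes overlapped for CCK as well.

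VIP differed by -0.29 (SE 0.182), CRH by -0.26 (SE 0.247) and SST by -0.15 (SE 0.311), with higher male means. For CRH the difference was -0.028 without male 5. ADCYAP1 differed by 0.30 (SE 0.213), NPY by 0.35 (SE 0.389), TAC1 by 0.54 (SE 0.984) and PENK by 0.10 (SE 0.307), with higher female log2 means. These directions were not stable for SST, which turned without female 3 or male 1, for NPY, which turned without male 5 (-0.084), or for PENK, which turned in 6 of 19 alternatives. The limma adjusted p of the 8 genes ranged from 0.925 to 0.982. The 95% intervals show how much was not resolved, and reached from -0.71 to 0.12 for VIP, the narrowest, and from -1.71 to 2.78 for TAC1, the widest. The TAC1 mean in TPM was higher in males (88.2 ± 124 against 64.5 ± 33.8, SD, n = 3 each), opposite to its log2 mean, and male 1 alone had 232 TPM.

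The sex difference of TAC1 changed sign with 1 library left out and with covariates. Without male 1 it was 1.81 (limma unadjusted p = 0.0107, adjusted p = 0.574). TAC1 was then the 1 of 8 genes with an unadjusted p under 0.05, beside 1972 of 25924 autosomal genes. Of the 8 genes 3 did not overlap between the sexes in that setting, beside 23.1% of autosomal genes. Without male 5 the TAC1 difference was -0.35. With the mean level of the 5 striatal markers as a covariate, it was -0.34 with an SE of 0.451, and that of PENK was -0.15. Leaving out female 1, female 3 and male 1, which leaves 1 female and 2 males, gave 0.72 for TAC1, -0.03 for PENK and 1.18 for NPY (limma adjusted p = 0.146). The striatal covariate and the removal of female 1, female 3 and male 1 were chosen after the striatal transcripts had been seen. With the covariate or with 1 library left out, 0 of the 8 genes passed the threshold.

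**Figure D4:**
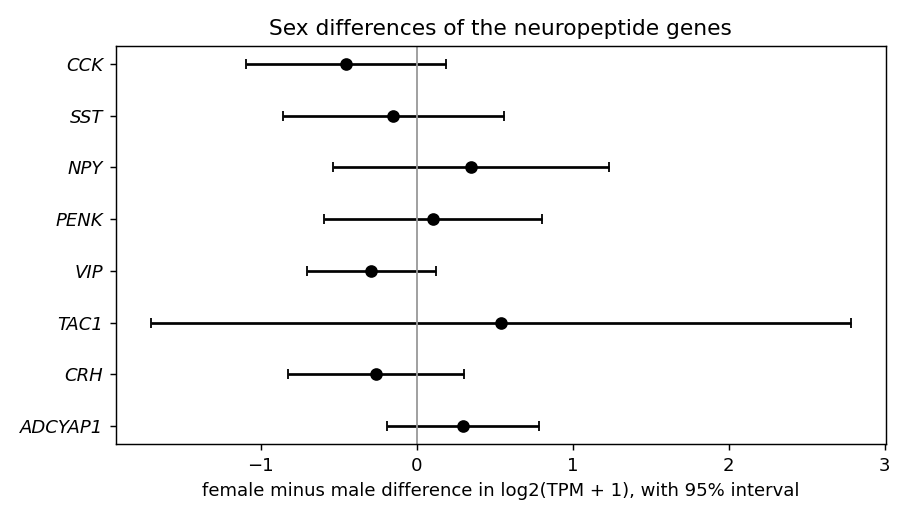
Female minus male difference in log2(TPM + 1) of the 8 neuropeptide genes (points) with 95% intervals from limma (bars), 3 females against 3 males. Each interval includes 0, from the narrowest of VIP (-0.71 to 0.12) to the widest of TAC1 (-1.71 to 2.78).

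Receptors of the 10 peptides were present for most families. Of 23 receptor genes 18 were listed and 15 passed the filter on low values. NPY1R, a receptor of neuropeptide Y, was the strongest by mean TPM and measured 76.1, 75.5 and 51.3 TPM in females 1, 3 and 4 and 78.1, 84.6 and 126 TPM in males 1, 4 and 5. CCKBR, the main brain receptor of cholecystokinin, ranged from 48.6 to 70.4 TPM, whereas CCKAR was listed at 0 in all 6 libraries. VIPR1, a receptor of VIP and PACAP, ranged from 34.8 to 50.1 TPM, and VIPR2 reached no more than 0.487 TPM. The CRH receptor CRHR1 ranged from 13.8 to 31.1 TPM, and the somatostatin receptors SSTR2 from 10.04 to 30.4 TPM and SSTR1 from 2.63 to 29.6 TPM.

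Receptors of the tachykinins were weak, with means of 1.02 TPM for TACR1, 2.55 TPM for TACR2 and 0.727 TPM for TACR3. Among the opioid receptors, which bind enkephalins and dynorphins, OPRD1 had a mean of 6.97 TPM and OPRM1 of 2.11 TPM. OPRK1, the dynorphin receptor, measured 33.2, 32.4 and 4.64 TPM in females 1, 3 and 4 and 44.1, 7.22 and 10.7 TPM in males 1, 4 and 5. It was highest in the same libraries as TAC1 and PENK, and TACR3 shared this order at levels of no more than 1.39 TPM. These were 2 of 18 listed receptors (11.1%), beside 7.75% of all named genes.

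Between the sexes 0 of the 15 receptors passed the adjusted threshold. At an unadjusted p under 0.05 there was 1 of 15, beside 5.04% of all autosomal genes, and 2 of 15 did not overlap, beside 9.81%. The former was TACR2, with 3.81, 6.56 and 2.89 TPM in females 1, 3 and 4 and 0.240, 1.68 and 0.113 TPM in males 1, 4 and 5. Its difference was 1.75 on the log2 scale (limma adjusted p = 0.925), and its sexes did not overlap. NPY1R was higher in each male than in each female by its values (difference -0.49, limma adjusted p = 0.925). The median difference of the 15 receptors was 0.13.

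**Figure D5:**
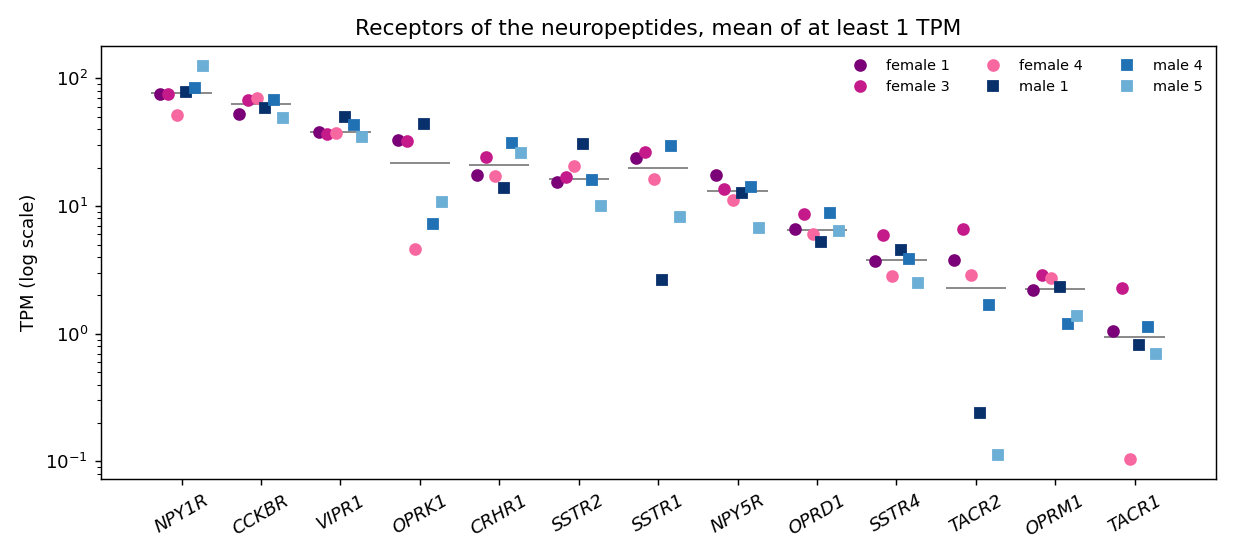
TPM (log axis) of the 13 listed receptor genes with a mean of at least 1 TPM in the 6 libraries, ordered by mean, with circles for females, squares for males and a grey line at the median. NPY1R and CCKBR lie highest, and OPRK1 is highest in female 1, female 3 and male 1.

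Of 14 genes that process and store the peptides 13 were listed, and 12 of these were above 0 TPM in all 6 libraries, CTSL being the exception. Their summed level ranged from 6338 to 6973 TPM. PCSK1N, an inhibitor of prohormone convertase, had the highest mean, 2623 TPM, but lies on an unplaced contig and was not tested. CPE, the carboxypeptidase that trims the cut peptides, ranged from 1091 to 2119 TPM. The convertases PCSK1 and PCSK2, which cut the precursors, had means of 60.2 and 91.4 TPM, and PAM, which amidates peptides such as CCK, NPY, VIP and substance P, of 99.2 TPM. Of the 11 tested, 0 passed the adjusted threshold and 1 had an unadjusted p under 0.05 and sexes that did not overlap (5.04% and 9.81% of all autosomal genes). This was CHGB, a granin of dense-core vesicles, at 140, 155 and 118 TPM in females 1, 3 and 4 and 105, 81.5 and 93.4 TPM in males 1, 4 and 5 (difference 0.55, limma adjusted p = 0.925).

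Of 10 peptide-degrading and binding proteins 7 were listed. CRHBP, which binds CRH and is made by a subset of SST cells, measured 22.6, 18.8 and 39.4 TPM in females 1, 3 and 4 and 42.5, 36.1 and 30.005 TPM in males 1, 4 and 5. It was above CRH in female 4, male 1 and male 4 and below it in female 1 (CRH at 22.9 TPM), female 3 (26.4 TPM) and male 5 (44.4 TPM). Among the 6 tested genes 0 had an unadjusted p under 0.05, beside 5.04% of all autosomal genes, and 6 had a higher male mean of log2(TPM + 1), with a median difference of -0.25.

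Among 31 other neuropeptide precursors 21 were listed and 18 tested. NPB (neuropeptide B) was the strongest, at 82.4 to 236 TPM. NTS had the second highest mean, which rests on female 1, female 3 and male 1, and in the other 3 libraries NPPC and PNOC were above it. Of the 18, 0 passed the adjusted threshold, and 3 had an unadjusted p under 0.05 with sexes that did not overlap, where 5.04% of all autosomal genes had such a p and 9.81% did not overlap. TAC3, which encodes the tachykinin neurokinin B, measured 10.04, 3.87 and 12.8 TPM in females 1, 3 and 4 and 0.342, 2.28 and 1.36 TPM in males 1, 4 and 5. Its difference was 2.05 (SE 0.580, limma adjusted p = 0.925), larger than that of any of the 8 neuropeptide genes above. NPW (neuropeptide W) differed by 1.37 (limma adjusted p = 0.925). PNOC, the precursor of nociceptin, had the opposite direction, with 11.99, 11.6 and 17.7 TPM in females 1, 3 and 4 and 18.0, 25.2 and 24.6 TPM in males 1, 4 and 5 (difference -0.69, limma adjusted p = 0.925).

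Markers of the interneurons that make many of these peptides were listed for 18 of 28 genes, and 17 of these were above 0 TPM in all 6 libraries. CHAT was listed at 0 in female 4, male 4 and male 5. DLX5, CHODL and CHAT (3 of 18, beside 7.75% of named genes) had their 3 highest values in female 1, female 3 and male 1. The part of other cell types in the levels of these markers was not tested. GAD1, the GABA-synthesising enzyme, ranged from 107 to 297 TPM, SLC32A1, the vesicular GABA transporter, from 170 to 367 TPM, and PVALB, the marker of an interneuron class separate from SST and VIP cells, from 76.8 to 131 TPM. LHX6, a transcription factor of SST and PVALB interneurons, ranged from 31.0 to 37.4 TPM, but other markers varied more, GAD2 from 8.61 to 87.4 TPM and DLX5 from 8.18 to 36.7 TPM, while SST itself varied 1.84-fold and NPY 3.38-fold between the lowest and the highest library. Between the sexes 0 of the 18 markers passed the adjusted threshold and 0 had an unadjusted p under 0.05, beside 5.04% of all autosomal genes. For 1 of 18 the sexes did not overlap, a smaller share than the 9.81% of all autosomal genes. This was SOX6, a transcription factor of the same lineage, higher in each male at 4.04 to 4.81 TPM against 2.48 to 3.60 TPM. The median difference of the 18 markers was 0.02.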

How the data were processed

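The authors enriched polyadenylated RNA and sequenced it as paired reads. They mapped the reads to TS_3.0 with HISAT2 2.2.1 and measured each animal against merged transcripts with StringTie 2.2.1. The deposited TPM and FPKM values are scaled to each library, and the deposited coverage is mean depth over a locus, not scaled. Without counts, the count test of the authors could not be run and no counting error was computed. Genes were taken by exact name, and rows of 1 gene ID and reference sequence were summed. Genes that reached 0.1 TPM in 3 libraries were fitted on log2(TPM + 1), a scale that understates changes of weak genes, with limma 3.58.1 (R 4.3.3, mean-variance trend, no covariate). Benjamini-Hochberg adjustment was applied separately to autosomes and to X, with calls under 0.1. Male-only segments of X and chromosome 26 were left out. Order and co-variation used exact permutation tests (scipy 1.17.1). The fit was also run on simulated data with independent noise for each gene and library. Those data lacked the differences between libraries described above, and the outcome is not given here.

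Receptors, processing genes, other precursors and cell type markers were lists of genes named by function. Genes were named where they were neuropeptide genes, belonged to these lists (called, at an unadjusted p under 0.05, not overlapping, or strongest by mean), overlapped a neuropeptide gene or had 1 of the 3 nearest profiles. Some genes that this rule names are not reported here. The members and lists were chosen with earlier results of these data known. Some animal numbers (1 and 4) are shared by the sexes. Over the fitted genes, deviations from the sex means correlated at 0.00098 (number 1) and 0.03832 (number 4) between same-numbered animals. These values do not settle whether same-numbered animals were handled together, and the main fit used no pairing. Each library is 1 animal.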

Additional observations from a re-analysis of the deposited data

How the results depend on the processing

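Under 19 alternatives 0 of the 8 neuropeptide genes passed the adjusted threshold. CCK, VIP and ADCYAP1 kept their direction in all 19, but not their size. With each library left out CCK ranged from -0.60 to -0.30 (smallest without female 3), VIP from -0.41 to -0.18 (without male 1) and ADCYAP1 from 0.17 (without male 4) to 0.42, and CCK was -0.25 with the replicate block and -0.21 without female 1, female 3 and male 1. The count of autosomal calls, 4 in the fit above, was 0 with the strandless share as a covariate, 0 without the mean-variance trend, 2 with the animal number as a replicate block, 2 with the striatal marker level as a covariate, 2 to 5 with each library left out, and 234 without female 1, female 3 and male 1 (1 female against 2 males). The lone female is there assumed to vary like the males, and genes needed 0.1 TPM in 2 libraries. With the strandless share as a covariate the difference turned for NPY (-0.10), PENK (-0.16), TAC1 (-0.16) and CRH (0.087). The sex term with the replicate block rests on animal numbers 1 and 4, because number 3 is a female alone and number 5 a male alone. With that block the difference turned for PENK (-0.25) and TAC1 (-0.58), and with the striatal covariate for PENK (-0.15) and TAC1 (-0.34). Without female 1, female 3 and male 1 it turned for SST (0.49) and PENK (-0.027). With each library left out, the difference ranged from -0.40 to 0.050 for SST, turning without female 3 (0.050) and without male 1 (0.0086), and from -0.084 to 0.65 for NPY, turning without male 5 (-0.084). The range was -0.15 to 0.41 for PENK, turning without female 1 (-0.012) and male 5 (-0.15), and -0.35 to 1.81 for TAC1, turning without male 5. For CRH it was -0.39 to -0.028, smallest without male 5, and -0.026 with the replicate block. The cause was not tested. Over 9 alternatives 3 to 4 of 7 neighbouring pairs had the upper gene higher in every library, and 0 of 28 pairs passed the adjusted threshold. The r of SST with NPY ranged from 0.778 to 0.912, and its unadjusted exact permutation p reached 0.0583 with single libraries left out. The alternatives with a striatal covariate or without the 3 libraries were chosen after seeing the data. Coverage without read counts or exon lengths gave no counting error.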

Other observations

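Among the listed immediate early genes, which neurons switch on with activity, FOS measured 92.1, 69.8 and 23.0 TPM in females 1, 3 and 4 and 78.3, 30.1 and 18.8 TPM in males 1, 4 and 5. EGR1 measured 53.4, 61.4 and 20.9 TPM in the same females and 48.0, 29.0 and 22.0 TPM in the same males. Both were highest in female 1, female 3 and male 1, as were TAC1 and PENK, whereas ARC was not (213, 193 and 92.5 TPM in females 1, 3 and 4, and 120, 129 and 36.1 TPM in males 1, 4 and 5). Of the 8 genes 0 passed the adjusted threshold for sex, and JUNB alone (1 of 8, beside 5.04% of all autosomal genes) had an unadjusted p under 0.05 (difference 1.05, limma adjusted p = 0.925).

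Male 5 combined the lowest NPY (95.7 TPM), PENK (98.9 TPM) and TAC1 (10.6 TPM) with the highest CCK (1805 TPM), CRH (44.4 TPM) and NPY1R (126 TPM), and it also had the lowest NPB (82.4 TPM) and the highest share of TPM at loci without a strand (7.88%). These values are from 1 animal and carry no test.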
